A study of Bos taurus with 4 samples.

Results

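HAND1, DLX3, MSX2, ASCL2 and DAB2 are later trophoblast genes, 4 of them transcription factors and 1 an adaptor protein of endocytosis. They were followed here in bovine blastocysts sired with semen of bulls at 12 or at 16 months of age. Every probe whose platform gene symbol was one of these 5 names was taken, so that 5 of the 15216 genes with a symbol are described here. They had 8 of the 43794 probes on the array, 4 for DAB2 and 1 for each of the other genes. All 8 were bright enough to be tested, among 30986 probes tested in all. DAB2 works on the inner face of the membrane, so none of the 5 genes encodes a protein exposed on the cell surface.

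The comparison was between embryos of the same bulls at the earlier and the later collection, around puberty. Bovine oocytes from slaughterhouse ovaries were matured, fertilised and cultured in vitro to the blastocyst stage. Both groups were thus in vitro blastocysts of the same kind, and only the age of the sperm donor differed by label, at 12 or 16 months. Each of 4 arrays held RNA of the 12-month group in one dye and RNA of the 16-month group in the other, with Cy5 on the 12-month RNA on arrays 1 and 2 and Cy3 on it on arrays 3 and 4. The 4 arrays are labelled biological replicates and 4 bulls were each collected at both ages, but no label ties a bull to an array or gives the number of embryos in an RNA. Every bull was older at the second collection, so age and time of collection cannot be told apart. Breed and culture batches are unknown here.

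The trophectoderm, the outer epithelium of the blastocyst, is set up by factors such as CDX2, GATA3 and TFAP2C, and its descendants then form the trophoblast of the placenta. HAND1, DLX3, MSX2 and ASCL2 act after that first step, and the placental roles given below for HAND1, DLX3 and ASCL2 are from the mouse. In cattle the trophectoderm elongates for a long time before it attaches, and its cells then include the binucleate cells that secrete pregnancy-associated glycoproteins.

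No difference between the 2 semen ages passed the test for any of the 5 genes, and none of the 8 probes kept 1 direction over all 4 arrays. The mean log2 ratios of 12 over 16 months lay between -0.13 for a DAB2 probe and 0.090 for HAND1. Over the 8 probes the 95% confidence intervals reached down to a ratio of 0.718, for a DAB2 probe, and up to 1.32, for ASCL2. These are bounds on ratios of signals and not of transcripts. All values are from amplified RNA of whole embryos, in which fewer cells of a type and less RNA per cell cannot be told apart, and in which the trophectoderm cannot be separated from the inner cell mass.

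By limma with Benjamini-Hochberg adjustment over all tested probes, 0 of 8 probes passed an adjusted p of 0.05, beside 0% of all probes tested (0 of 30986). The smallest adjusted p of any probe was 0.448. With 1 array left out, 1 dye orientation had 1 array, so the spread of a probe came from the other 2 arrays alone. The counts that follow have that limit. Without array 3 the count over all probes was 42 and without array 4 it was 457, and in both cases 0 of 8 member probes passed. With no adjustment, p was under 0.05 for 0 of 8, beside 4.12% of all tested probes (1277). A probe had the same sign on all 4 arrays in 10.1% of the tested probes measured on every array (3072 of 30388), and 0 of 8 member probes did. The mean was higher with 12-month semen for 4 of 8 member probes, beside 50.3% of the probes measured on every array. The dye coefficient of the same fit passed an adjusted p of 0.05 for 0 of 8 probes, beside 0.029% of all tested probes (9). The largest dye coefficient among them was 0.19, for DLX3. Between 62.7% and 72.3% of all probes were above the negative control level in a channel. Across all tested probes, the ratios of 2 arrays correlated between -0.24 (arrays 1 and 4) and 0.33 (arrays 1 and 2).

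**Figure D1:**
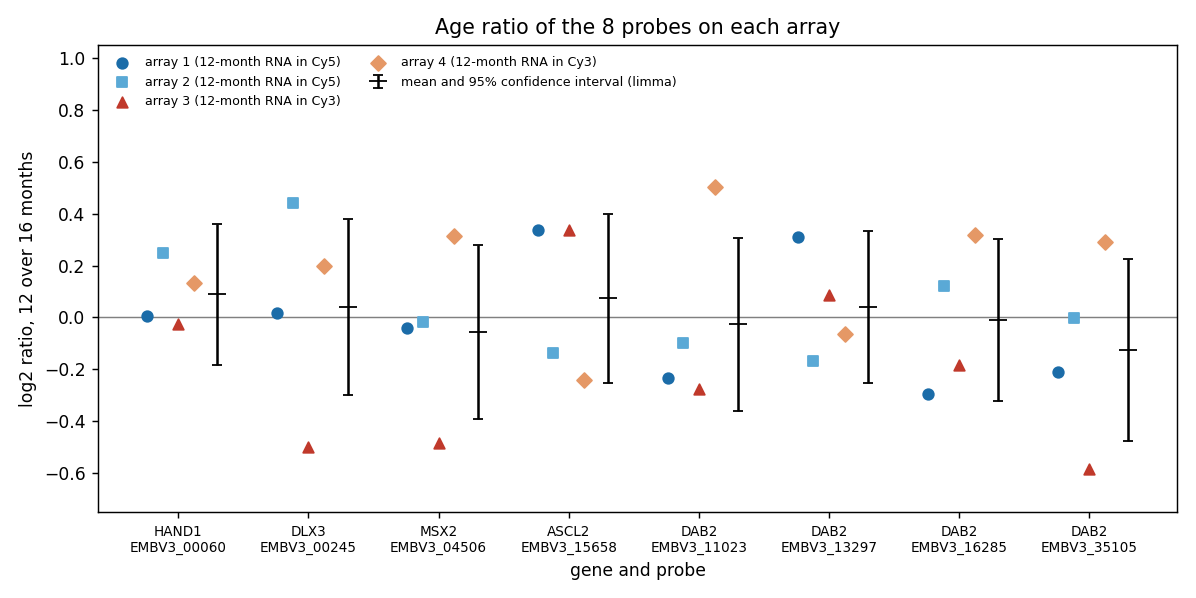
Log2 ratio of 12 over 16 months of the 8 probes (vertical axis) on arrays 1 to 4 (marker shape and colour), with the mean and its 95% confidence interval from limma in black. Each of the 8 intervals spans 0, and each probe has arrays above and below 0.

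HAND1, a basic helix-loop-helix factor required in mouse for trophoblast giant cells and for the heart, was close to background. Its probe EMBV3_00060 exceeded the negative control level in 5 of 8 channel signals, at 0.958 to 1.43 times that level, on 3 arrays for the 12-month RNA and on 2 for the 16-month RNA. It thus passed the filter on dim probes, which asks for 4 of 8 signals, with little to spare. The log2 ratios on arrays 1 to 4 were 0.0053, 0.25, -0.026 and 0.13. Arrays 2 and 4 were above 0, array 1 was close to 0 and array 3 was just below it. The mean was 0.090 ± 0.13 (SD, n = 4) with an interval of the ratio from 0.882 to 1.28 and an adjusted p of 0.972 by limma. The log2 intensities were 6.84, 7.15, 7.32 and 7.34 in the 12-month RNA and 6.84, 6.90, 7.35 and 7.20 in the 16-month RNA. The 2 ages overlapped, and the arrays differed from each other more than the ages did on each of them. Of all tested probes, 10.3% had a smaller SD over arrays. An offset of 50 was added to each signal, which draws ratios of dim probes toward 0, so the interval bounds the ratio of the signals and not that of the transcript.

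**Figure D2:**
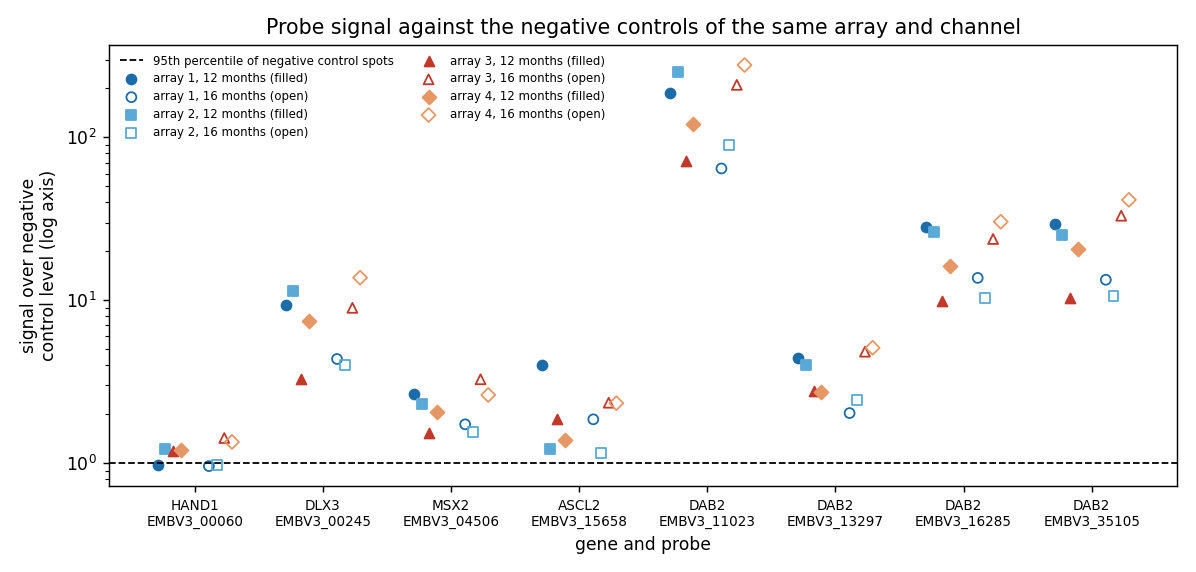
Background-subtracted signal divided by the 95th percentile of the negative controls on that array and in that channel (log axis) for each probe, with 12-month RNA filled and 16-month RNA open. HAND1 lies between 0.958 and 1.43, on both sides of the dashed line, and the DAB2 probe EMBV3_11023 lies between 64.4 and 278.

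ASCL2, the other basic helix-loop-helix factor, is needed in mouse for the spongiotrophoblast and is expressed there from the maternal allele. Its probe EMBV3_15658 was above the negative control level in all 8 signals, at 1.15 to 3.99 times that level. On array 2 it was close to background, at 1.22 times in the 12-month and 1.15 times in the 16-month RNA. There the offset draws its ratio toward 0, as for HAND1. The log2 ratios on arrays 1 to 4 were 0.34, -0.14, 0.34 and -0.24. Arrays 1 and 3 were higher with 12-month semen and arrays 2 and 4 were lower. These pairs do not follow the dye, since the 12-month RNA was in Cy5 on array 1 and in Cy3 on array 3. The mean was 0.073 ± 0.31 (SD, n = 4), with an interval of the ratio from 0.839 to 1.32 and an adjusted p of 0.983 by limma. It was -0.045 without array 1 and -0.072 without array 3, so its sign rests on those arrays.

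ASCL2 varied more between arrays than between the semen ages on an array. Its log2 intensity was 8.59, 7.15, 8.28 and 7.54 in the 12-month RNA of arrays 1 to 4 and 8.26, 7.29, 7.95 and 7.79 in the 16-month RNA of the same arrays. In both ages array 1 was brightest, array 3 next, then array 4 and array 2. The mean brightness of the arrays ranged over 1.20 on the log2 scale, a range larger than in 94.6% of tested probes, for which the median range was 0.407. What the arrays differ in besides the embryos, such as amplification or labelling, was not tested.

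**Figure D3:**
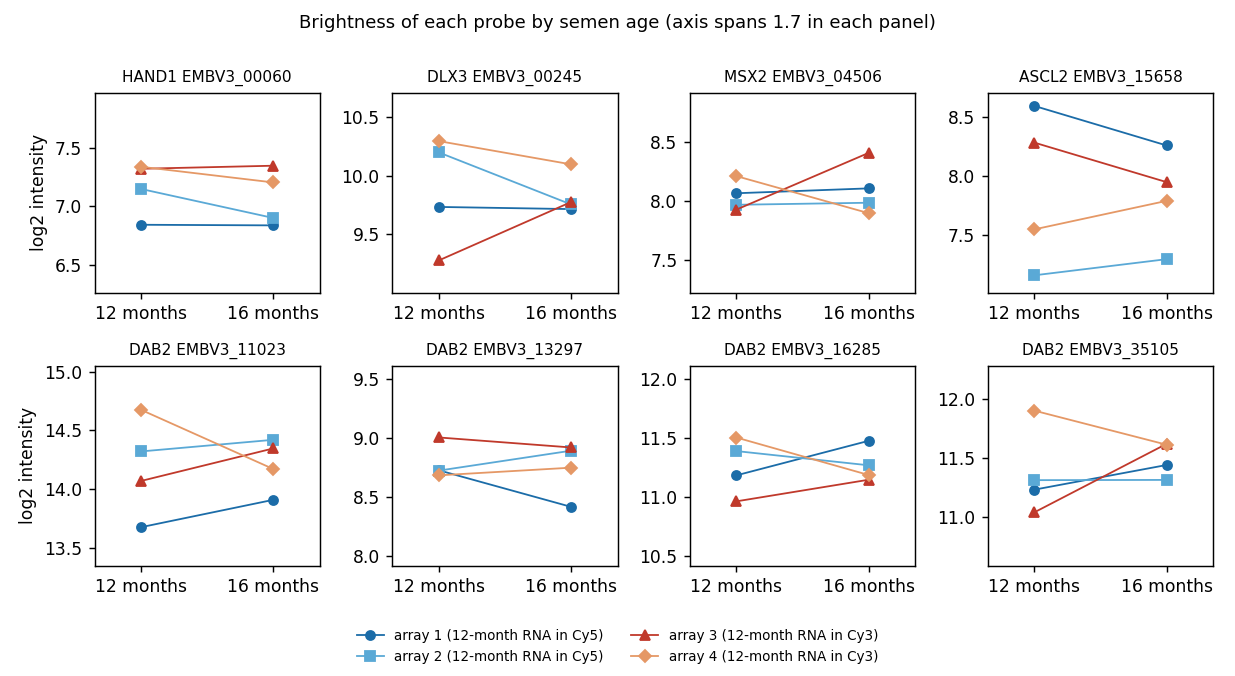
Normalised log2 intensity of each probe (vertical axis, same span in every panel) in the 12-month and the 16-month RNA, with a line joining the 2 RNAs of an array. ASCL2 keeps the order of its arrays in both ages over a range of 1.20, while MSX2 arrays differ by 0.19 in mean brightness.

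DLX3, a homeobox factor that mouse embryos need to form the placental labyrinth, was well above background, at 3.29 to 13.8 times the negative control level. The log2 ratios of its probe EMBV3_00245 were 0.018, 0.44, -0.50 and 0.20 on arrays 1 to 4. Arrays 1, 2 and 4 were above 0 and array 3 was lower by more than any of the others was higher. The mean was 0.040 ± 0.40 (SD, n = 4), the largest SD of the 8 probes, and 78.3% of tested probes had a smaller one. The interval of the ratio ran from 0.814 to 1.30 and the adjusted p was 0.989 by limma. The low ratio on array 3 came with the dimmest 12-month RNA of the 4, at a log2 intensity of 9.28 beside 9.73, 10.20 and 10.29 on arrays 1, 2 and 4. In the 16-month RNA the values were 9.71, 9.75, 9.78 and 10.10, so array 3 was within the others there. The mean was 0.21 without array 3, -0.066 without array 2 and -0.13 without array 4.

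MSX2, a homeobox factor induced by BMP signals in many tissues, was above background in all 8 signals, at 1.52 to 3.27 times the negative control level. The log2 ratios of its probe EMBV3_04506 were -0.041, -0.017, -0.48 and 0.32. Arrays 1 and 2 were near 0, and arrays 3 and 4, which share a dye orientation, went opposite ways. The mean was -0.057 ± 0.33 (SD, n = 4), the interval of the ratio 0.762 to 1.21 and the adjusted p 0.985 by limma. The log2 intensities were 8.07, 7.97, 7.93 and 8.21 in the 12-month RNA and 8.11, 7.99, 8.41 and 7.90 in the 16-month RNA. Array 3 was the brightest in the 16-month RNA and the dimmest in the 12-month RNA, and the mean brightness of the arrays differed by 0.19. Without array 3 the mean ratio was 0.14, and without array 4 it was -0.26.

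DAB2 is a cytosolic adaptor that links receptors of the LDL receptor family to clathrin, and in mouse it is made in extraembryonic endoderm as well as trophoblast. Its 4 probes were all above background in all 8 signals. For probe EMBV3_11023, at 64.4 to 278 times the negative control level, the log2 ratios on arrays 1 to 4 were -0.23, -0.099, -0.28 and 0.50. For EMBV3_35105 they were -0.21, -0.0022, -0.58 and 0.29, and for EMBV3_16285 -0.29, 0.12, -0.18 and 0.32. In these 3 probes arrays 1 and 3 were below 0 and array 4 was above it. Probe EMBV3_13297, at 2.03 to 5.11 times the negative control level, gave 0.31, -0.17, 0.085 and -0.065, and had the opposite sign on arrays 1, 3 and 4. Whether the 4 probes read the same transcript was not tested, as no genome was used here.

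The mean of the DAB2 probes was -0.026 ± 0.36 for EMBV3_11023, 0.040 ± 0.21 for EMBV3_13297, -0.0094 ± 0.28 for EMBV3_16285 and -0.13 ± 0.37 for EMBV3_35105 (SD, n = 4). The adjusted p by limma was 0.993, 0.987, 0.998 and 0.969 in the same order. The intervals of the ratio were 0.779 to 1.24, 0.840 to 1.26, 0.800 to 1.23 and 0.718 to 1.17, so all 4 spanned a ratio of 1. Without array 3 the means were 0.17, 0.0028, 0.12 and 0.092, and without array 4 they were -0.22, 0.078, -0.14 and -0.34. Without array 1 they were 0.0072, -0.080, 0.095 and -0.074, so each probe changed sign when some array was left out. Within an array the 4 probes spread by an SD of 0.28, 0.13, 0.28 and 0.24 on arrays 1 to 4. The SD over arrays of a single probe, at 0.21 to 0.37, was not far from that spread. The mean over the 4 probes was -0.11, -0.037, -0.24 and 0.26 on arrays 1 to 4, with array 4 alone above 0.

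For EMBV3_11023 the log2 intensity was 13.68, 14.32, 14.07 and 14.68 in the 12-month RNA and 13.91, 14.42, 14.35 and 14.17 in the 16-month RNA. Array 1 was dimmest in both ages, and the brightest 12-month RNA was that of array 4. Array 4 was also the brightest 12-month RNA for EMBV3_16285, at 11.51 beside 10.96 to 11.39 on the other arrays, and for EMBV3_35105, at 11.91 beside 11.04 to 11.31. It was not for EMBV3_13297, where array 3 was brightest at 9.004. In the 16-month RNA the range was 13.91 to 14.42 for EMBV3_11023 and 8.41 to 8.92 for EMBV3_13297. It was 11.15 to 11.48 for EMBV3_16285 and 11.32 to 11.62 for EMBV3_35105.

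Across the 5 genes, each read by its brightest probe, the arrays did not move together. On array 1, 3 of 5 genes were higher with 12-month semen, on array 2 it was 2, on array 3 it was 1 and on array 4 it was 4. The median of the 5 genes was 0.0053, -0.017, -0.28 and 0.20 on the 4 arrays, while that of the 11963 genes tested was -0.0088, 0.024, -0.022 and 0.00048. The 12-month RNA had the larger SD over arrays for 5 of 8 probes, beside 51.1% of all tested probes, a share near the background.

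In the authors' deposited table, turned to 12 over 16 months, the means were 0.078 for HAND1, 0.047 for DLX3, -0.054 for MSX2 and 0.070 for ASCL2. For the DAB2 probes they were -0.040 for EMBV3_11023, 0.034 for EMBV3_13297, -0.0031 for EMBV3_16285 and -0.13 for EMBV3_35105. The sign of all 8 means was thus that of the values given here. The authors' table and the scanner files come from the same arrays, so this is a check of the processing and not a second measurement.

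For each gene the 2 genes whose ratios on the 4 arrays were nearest are named, by the root mean square difference over 4 arrays among 11963 genes. For HAND1 they were CD244 at 0.029 and B3GALT1 at 0.030. For DLX3 they were BOSTAUV1R414 at 0.038 and E2F5 at 0.046, and for MSX2 RNF2 at 0.022 and DSTN at 0.026. For ASCL2 they were TOR2A at 0.050 and ZCCHC12 at 0.054, and for DAB2 UNC13B at 0.038 and SAMD4A at 0.042. These distances describe 4 arrays and carry no test.

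The related genes were taken as lists chosen with earlier results of these data known. The members gave 0 of 5 genes with an unadjusted p under 0.05, beside 4.28% of all tested genes (512 of 11963), and 3 of 5 genes were higher with 12-month semen, beside 50.4%. Adjusted over all probes, 0 genes of any list passed. Of the helix-loop-helix partners and relatives of HAND1 and ASCL2, 5 of 7 tested genes were higher and 2 lower. Their median was 0.12, with array medians of -0.049, -0.098, 0.0053 and -0.055. The median of the gene means was above 0 while 3 of 4 array medians were below it, so the list has no settled direction. Without array 3 the median was 0.045. ID3, an inhibitor of such factors and a BMP target, had log2 ratios of -1.19, -0.95, -0.84 and -1.10 and a mean of -1.02 ± 0.15 (SD, n = 4, adjusted p 0.448 by limma). Its other 3 probes averaged between -0.025 and 0.12, and the probe read here was above background in 7 of 8 signals. It was at -0.96, -1.08, -1.09 and -0.95 without arrays 1, 2, 3 and 4 in turn. Whether it passed the threshold in those fits depended on the array left out, and each took its spread from 1 pair of arrays. ID1 stood at 0.20 ± 0.19.

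Of the placental homeobox relatives of DLX3 and MSX2, 1 of 4 tested genes was higher and 3 were lower, and their median was -0.059, which turned to 0.020 without array 2. DLX6 was at -0.11 ± 0.21 and DLX4 at 0.11 ± 0.41, the latter an SD as wide as that of DLX3. Of the BMP pathway, which induces MSX2, 12 of 17 tested genes were higher and 5 lower, at a median of 0.085 that fell to 0.029 without array 3 and to 0.032 with the mean over all probes of a gene, and ID3 was the 1 gene with an unadjusted p under 0.05. Of the partners of DAB2 in endocytosis, 9 of 18 were higher and 9 lower, and their median was 0.0024, from -0.032 to 0.030 with each array left out. EPS15L1, a clathrin coat protein, was at 0.22 ± 0.44 and PICALM, which sizes clathrin coats, at -0.18 ± 0.25. With mean pixel intensities these were 0.046 and -0.065, and with each array left out they ran from 0.068 to 0.38 and from -0.29 to -0.079. Of the neighbours of ASCL2, listed as imprinted genes, 8 of 10 were higher and 2 lower. Their median was 0.017, from -0.022 to 0.070 with each array left out. No allele was measured, so whether they are imprinted in these embryos was not tested. PHLDA2, which restrains placental growth in mouse, had log2 ratios of -0.27, -0.0020, -0.54 and -0.020, of which those on arrays 2 and 4 were close to 0. Its mean was -0.21 ± 0.25 (adjusted p 0.969 by limma), which was -0.078 without array 3 and -0.34 without array 4. TSPAN32 was at 0.19 ± 0.21, from 0.11 to 0.27 with each array left out and at 0.050 with mean pixel intensities.

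Of the trophectoderm regulators, 6 of 14 were higher and 8 lower, and their median was -0.028, from -0.061 to 0.029 with each array left out. EOMES was at 0.16 ± 0.36 and KLF5 at -0.12 ± 0.10, from -0.18 without array 3 to -0.061 without array 4. The EOMES probe was above background in 4 of 8 signals, the fewest that the filter allows. Other probes of KLF5 averaged -0.33 and 0.11. Of the trophoblast products, 8 of 17 were higher and 9 lower, and their median was -0.0067 with array medians of 0.23, 0.39, -0.62 and 0.14. Without array 3 the median of the list was 0.15, and without array 4 it was -0.12. Array 3 was thus low for trophoblast products as it was for DLX3, MSX2 and the brightest DAB2 probe, while ASCL2 was high there. The DAB2 probe EMBV3_13297 was at 0.085 on that array and HAND1 at -0.026. Low medians on array 3 were not particular to trophoblast lists. They were -0.26 for 15 primitive endoderm markers and -0.19 for 18 DAB2 partners. In smaller lists they were -0.26 for 6 cumulus and granulosa markers and -0.22 for 3 early mesoderm markers. Inner cell mass markers stood at 0.030 there and the listed neighbours of ASCL2 at 0.13. PAG12, a pregnancy-associated glycoprotein, gave 0.90, 0.94, -0.54 and 0.60 with a mean of 0.47 ± 0.70. The mean of PAG12 was 0.76 without array 3 and 0.19 without array 4. SLC2A1, a glucose transporter, was lower on all 4 arrays at -0.42 ± 0.078 (adjusted p 0.969 by limma), while its second probe was at 0.096. With mean in place of median pixel intensities its mean was -0.12.

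**Figure D4:**
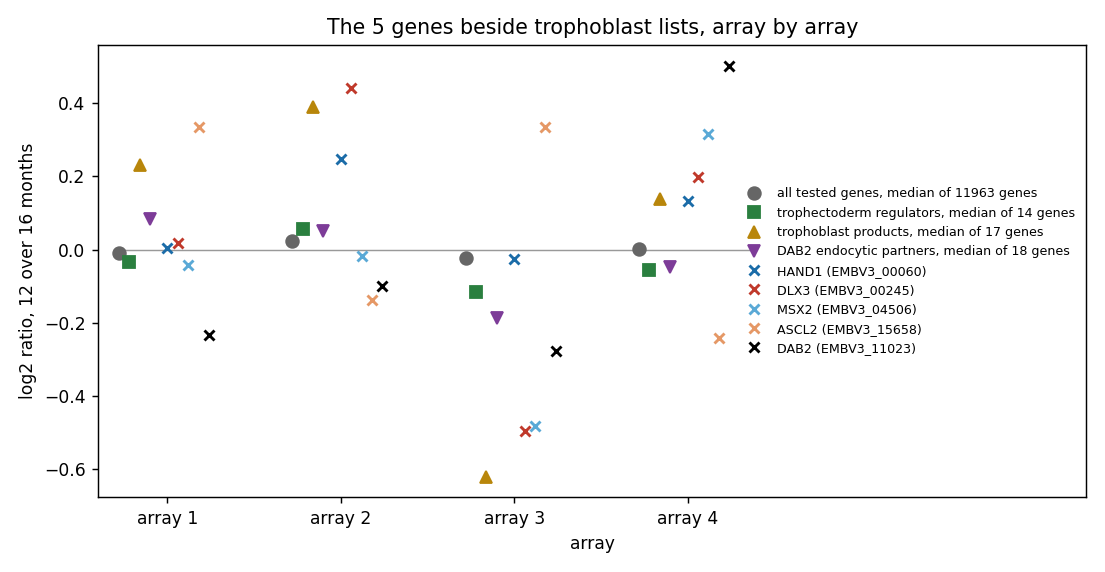
Log2 ratio of 12 over 16 months (vertical axis) on each array, with filled markers for the median of a gene list and crosses for the brightest probe of each of the 5 genes. On array 3 the trophoblast product median is -0.62, DLX3 -0.50 and MSX2 -0.48, while ASCL2 is 0.34 and the median of all genes -0.022. The median of DAB2 partners is -0.19 there and HAND1 is -0.026.

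The label of the samples was set beside markers. A gene was counted by its probe with the most signals above the negative control level. The share of all genes above that level in all 8 signals was not computed. The counts thus do not show by themselves which cell types were present. Of 10 trophectoderm markers, 9 were above the negative control level in all 8 signals, among them CDX2, GATA3 and KRT18, and 9 of 12 inner cell mass markers and 14 of 16 primitive endoderm markers were too. Of 7 early mesoderm markers 1 was, with 2 in none of the signals, and of 14 cumulus and granulosa markers 4 were, with 3 in none. The part of these other cell types in the values of the 5 genes was not tested. The trophectoderm marker median was 0.020, 0.26, -0.32 and -0.080 on arrays 1 to 4. Of these markers 4 of 10 were higher and 6 lower, with KRT18 the lowest at -0.20 ± 0.27 and EOMES the highest at 0.16 ± 0.36. Primitive endoderm markers had array medians of -0.080, -0.23, -0.26 and -0.057, with 6 of 15 higher and 9 lower, LAMA1 at -0.66 ± 0.59 and COL4A1 at -0.34 ± 0.14. Inner cell mass markers had 5 of 11 higher, with IL6R at 0.30 ± 0.29 and POU5F1 at -0.23 ± 0.49. Early mesoderm markers had 1 of 3 higher, with TBX6 at 0.23 ± 0.11 and GSC at -0.036 ± 0.32. The TBX6 probe was above background in only 5 of 8 signals. Cumulus and granulosa markers had 5 of 6 higher, with HSD3B1 at 0.55 ± 1.08 and STAR at -0.43 ± 0.41. No gene in these marker lists passed the adjusted p of 0.05 by limma on 4 arrays. Calls made with an array left out depended on which one it was, and each such fit took its spread from 1 pair of arrays. No adjusted p is therefore given here for those fits. LAMA1 was at -0.88 without array 4 and at -0.43 without array 3. STAR was at -0.60 without array 4 and at -0.26 without array 3. The other STAR probes averaged -0.20 and 0.11 on 4 arrays. HSD3B1 was at 1.07 without array 3 and at 0.041 without array 4. With mean pixel intensities TBX6 was at 0.039 and KRT18 at -0.089.

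**Figure D5:**
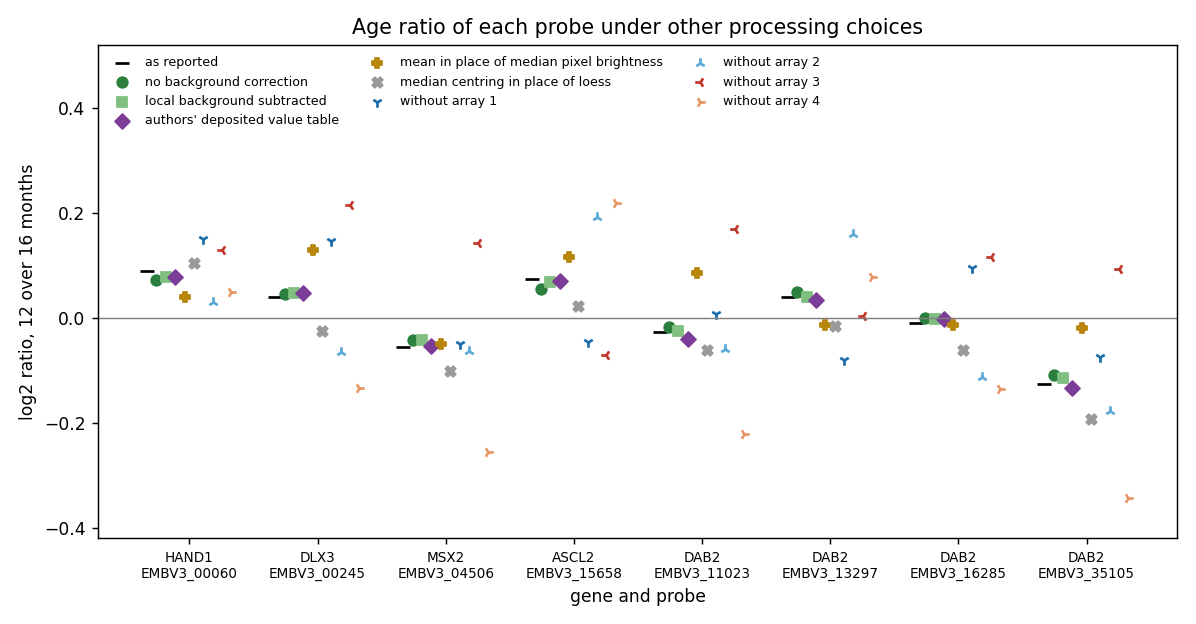
Mean log2 ratio of 12 over 16 months of each probe (vertical axis) as reported and under other processing choices, including each array left out. HAND1 stays above 0 in every setting drawn, from 0.029 to 0.15, and the other probes cross 0 when an array is left out.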

How the data were processed

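The 4 arrays each carried blastocyst RNA in 2 channels. Per the labels' protocols, RNA was amplified and labelled chemically with Cy3 or Cy5. The deposited scanner files hold the intensity of each spot as a median and a mean over pixels, with no background subtracted, per the file headers. The authors' deposited value table holds a log2 ratio of Cy5 over Cy3 per probe, which correlated at 0.986 to 0.994 across probes with the ratios computed here for the same array, and at most 0.324 with another array. Its background step is unknown here. Per the submitters' processing notes, limma was used.

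Median intensities were background corrected by normexp with an offset of 50, after the spots marked as ignored in the scanner files (13, 10, 64 and 818 on arrays 1 to 4) were removed, and loess normalised within arrays. Only probes whose signal less background was above the 95th percentile of 153 negative controls in at least 4 of 8 channel signals were tested. limma 3.58.1 in R 4.3.3 fitted 1 coefficient for age and 1 for dye. Tests were two-sided, Benjamini-Hochberg adjusted over 30986 probes, with a threshold of 0.05. All 4 arrays were on 1 slide. P-values and confidence intervals measure the spread between these 4 arrays only. They rest on the spread between arrays of the same dye orientation, moderated over all tested probes. The SD over 4 arrays printed beside a mean is a different spread. With 1 array left out, 1 pair of the same dye orientation remains. The procedure was tested on simulated data with 200 changed probes among 30388. Of the changed probes, 0% were called at a fold of 1.5 and 0% at a fold of 2. At a fold of 4 the share was 89.5%, and at a fold of 8 it was 99.5%. A count of 0 calls thus does not show that changes of 2-fold or less were absent.

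Each gene in a list was read by its brightest tested probe measured on all arrays. The counts of markers above the negative control level took instead the probe with the most such signals. All probes of the 5 genes were named. From each list the 2 genes with the smallest unadjusted p were named, and for each of the 5 genes the 2 genes with the nearest ratios. The members and lists were chosen with earlier results of these data known. The alternatives were no background correction, subtraction, median centring, Aquantile, mean pixel intensities, no or a stricter filter on dim probes, no dye coefficient, the authors' table, each array left out, and, for gene lists, the mean over all probes of a gene.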

Additional observations from a re-analysis of the deposited data

Results flagged for a closer look

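Of 69 sets of 4 values checked for one value far from the other 3, 4 held one, and 2 of these were among the 24 sets of the 8 member probes. DLX3 had a log2 intensity of 10.10 in the 16-month RNA of array 4, beside 9.71 to 9.78 on the other arrays. The DAB2 probe EMBV3_13297 had a log2 intensity of 9.004 in the 12-month RNA of array 3, beside 8.68 to 8.73 on the others. TBX6, an early mesoderm marker, had a log2 ratio of 0.39 on array 2, beside 0.17 to 0.18 on the others. The early mesoderm marker median was -0.22 on array 3, beside 0.17 to 0.24 on the others. Chance flags about 5% of such sets.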

How the results depend on the processing

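No member probe passed the adjusted p of 0.05 by limma in any of 111 recomputed values, the lowest adjusted p being 0.213, and 95 kept their sign while 16 turned it. HAND1 kept its direction throughout. Of the turned values, 5 came from a processing choice: DLX3 at -0.025 and DAB2 EMBV3_13297 at -0.015 with median centring, EMBV3_13297 at -0.014 and EMBV3_11023 at 0.085 with mean pixel intensities, and MSX2 at 0.0014 when ignored spots were kept in the background fit, an alternative chosen after seeing the data. With each array left out, the range was -0.13 to 0.21 for DLX3, -0.26 to 0.14 for MSX2, -0.072 to 0.22 for ASCL2, -0.22 to 0.17 for EMBV3_11023, -0.080 to 0.16 for EMBV3_13297, -0.14 to 0.12 for EMBV3_16285 and -0.34 to 0.092 for EMBV3_35105. The cause of these turns was not tested, and each lies within the confidence interval of its probe. Among the other genes named from the lists, those whose sign turned ranged from -0.23 to 0.0039 for DLX6 and -0.052 to 0.27 for DLX4. The range was -0.0080 to 0.33 for EOMES, -0.48 to 0.011 for POU5F1 and -0.083 to 0.010 for GSC, which stood at 0.012 when ignored spots were kept. Of the genes with the nearest ratios, CD244 and B3GALT1 kept their sign with each array left out. The others turned, from -0.12 to 0.20 for BOSTAUV1R414, -0.14 to 0.17 for E2F5, -0.26 to 0.13 for RNF2 and -0.27 to 0.14 for DSTN. TOR2A ran from -0.068 to 0.17, ZCCHC12 from -0.10 to 0.22, UNC13B from -0.18 to 0.18 and SAMD4A from -0.27 to 0.16. List medians moved as well with each array left out, from -0.13 to 0.14 for the 5 genes, 0.045 to 0.13 for helix-loop-helix partners, -0.099 to 0.020 for homeobox relatives, 0.029 to 0.14 for the BMP pathway, -0.12 to 0.15 for trophoblast products, -0.079 to 0.044 for trophectoderm markers and -0.12 to -0.026 for primitive endoderm markers. The number of all probes past the threshold ranged from 0 to 457 with each array left out, at 42 without array 3 and 457 without array 4. HAND1 gave no value under the stricter filter on dim probes. Brightness near background limits HAND1, and 4 arrays limit every value.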
